A study of Mus musculus with 21 samples.

Results

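Transverse aortic constriction (TAC) narrows the aorta with a ligature, so that the left ventricle has to pump against a raised pressure. Here the ligature was sized on a needle and tied around the aortic arch, past the brachiocephalic trunk and before the left carotid artery branches off. Its effect was measured on expression arrays of heart muscle from G4D mice, known from the study's background, though not from its labels, to be heterozygous for a targeted deletion of Gata4, in 6 samples after TAC and 5 after a sham operation in which the aorta was not touched. These 11 samples were chosen by genotype and operation from the 21 of the study. The other 10, 4 wild-type sham and 6 wild-type TAC, were used for the spread between arrays and for the comparison with wild type. The labels name the cardiac myocyte as the source of the total RNA. They do not say whether myocytes were isolated, and give no strain, age, sex or time after the operation. Nothing beyond the titles says that numbered samples are separate animals, so the p-values measure the spread between these samples.

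Gata4 encodes a zinc-finger transcription factor that heart muscle needs from early development onwards and that activates genes of the contractile apparatus and the natriuretic peptides. Under pressure overload, cardiac myocytes enlarge, take up part of a fetal pattern of gene expression and draw less on fatty acids. Fibroblasts lay down collagen at the same time, and macrophages accumulate between the muscle cells.

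Levels are log2 values of probe sets, so a difference of 1 is a doubling. Each of 13279 tested genes is represented by its brightest probe set, and levels of different genes are not comparable. A gene was called, and is said to have risen or fallen, at a Benjamini-Hochberg adjusted p under 0.05 from limma, adjusted over all tested genes. Numbers after ± are standard errors of a log2 difference, TAC less sham, unless called SD. The median of an array in the deposited values ran from 4.31 to 5.33, with both extremes among the G4D arrays, and quantile normalization removed these differences. In the values as deposited the median of all tested genes shifted by 0.31 in G4D TAC, and after median centring by 0.10, against -0.02 here. Where a list held falls, the 2 numbers in brackets after their count give the falls called in the values as deposited and after centring. G4D sham array 5 carried high levels of atrial genes, and the values of several genes and lists are given without it too. A measure of RNA integrity moved with the operation: the difference between the 3′ and 5′ actin probe sets was 0.445 ± 0.097 (SD, n = 5) in sham and 0.260 ± 0.108 (SD, n = 6) in TAC (two-sided exact permutation test over 462 splits, p = 0.0216), with overlapping groups. The same difference for Gapdh did not pass the exact permutation test (p = 0.214). The part of RNA integrity in the results below was not tested.

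Gata4 itself did not pass the test. On its brighter probe set it stood at 7.90, 7.90, 7.70, 7.93 and 7.83 in the sham arrays and at 7.64 to 8.14 (median 8.0) in the TAC arrays, a difference of 0.12 ± 0.11 (adjusted p = 0.486). The groups overlapped throughout. The dimmer probe set gave -0.02 ± 0.28. The position of the probe sets against the deleted stretch of Gata4 is unknown, and the values are no check of the labels. Gata6, the related factor of adult heart muscle, fell by 0.38 ± 0.10 (adjusted p = 0.011), but stood at 0.04 in the values as deposited. Its other probe sets, both dimmer, gave -0.70 and -0.34 after quantile normalization.

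TAC changed the level of 2985 of the 13279 genes in G4D hearts (22.5%). Of these, 1748 rose (13.2% of tested genes) and 1237 fell (9.32%). The split depended on the scale: 58.6% of calls were rises, against 97.8% of 2252 calls in the values as deposited and 88.8% of 2178 after centring. At 1.5-fold or more, 729 genes rose (5.49%) and 300 fell (2.26%), together 7.75% of tested genes. In 894 (6.73%) every TAC array lay above every sham array and in 449 (3.38%) below, together 10.1%. Without sham array 5, 2920 genes were called. Of the 68 falls named here 16 were also called in the values as deposited: Angpt1, Ano10, Cdkn1c, Ces1d, Efnb3, Gsta3, Gstt1, Herpud1, Hlf, Kcnj3, Kcnv2, Klf15, Lamb3, Retnla, Tbx5 and Upk3b. No rise named here lost its call on either other scale. Both scales shift the median gene upwards in G4D TAC, which adds to rises and takes from falls. That outcome therefore does not show that rises are firmer than falls. With the 11 G4D arrays alone the calls of 2 named rises ended, Acta1 (0.90, limma adjusted p = 0.052) and Ifit2 (0.74, limma adjusted p = 0.0697). The calls of the falls of Bmp6, Ciart, Corin, Gata6, Inha and Pcsk6 ended there too. On the first principal component of the 11 arrays, which held 39.4% of the variance, all sham arrays lay below 0 (-42.4 to -8.61) and all TAC arrays above (4.51 to 29.9), with TAC array 4 nearest to sham. The bar plot of called shares by gene list places the lists described below side by side. Some lists were called at shares near or below the 22.5% of all tested genes, and their counts are no result about the list. They include endothelial markers (15%), oxidative phosphorylation (19.3%), smooth muscle and pericyte markers (25%), calcineurin and CaM kinase (26.3%), heart muscle markers (26.7%) and cardiac transcription factors (28%). Parts of lists near that share include cell junctions (26.7%) and the receptors and transducers of the TGF-beta family (27.8%).

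**Figure D1:**
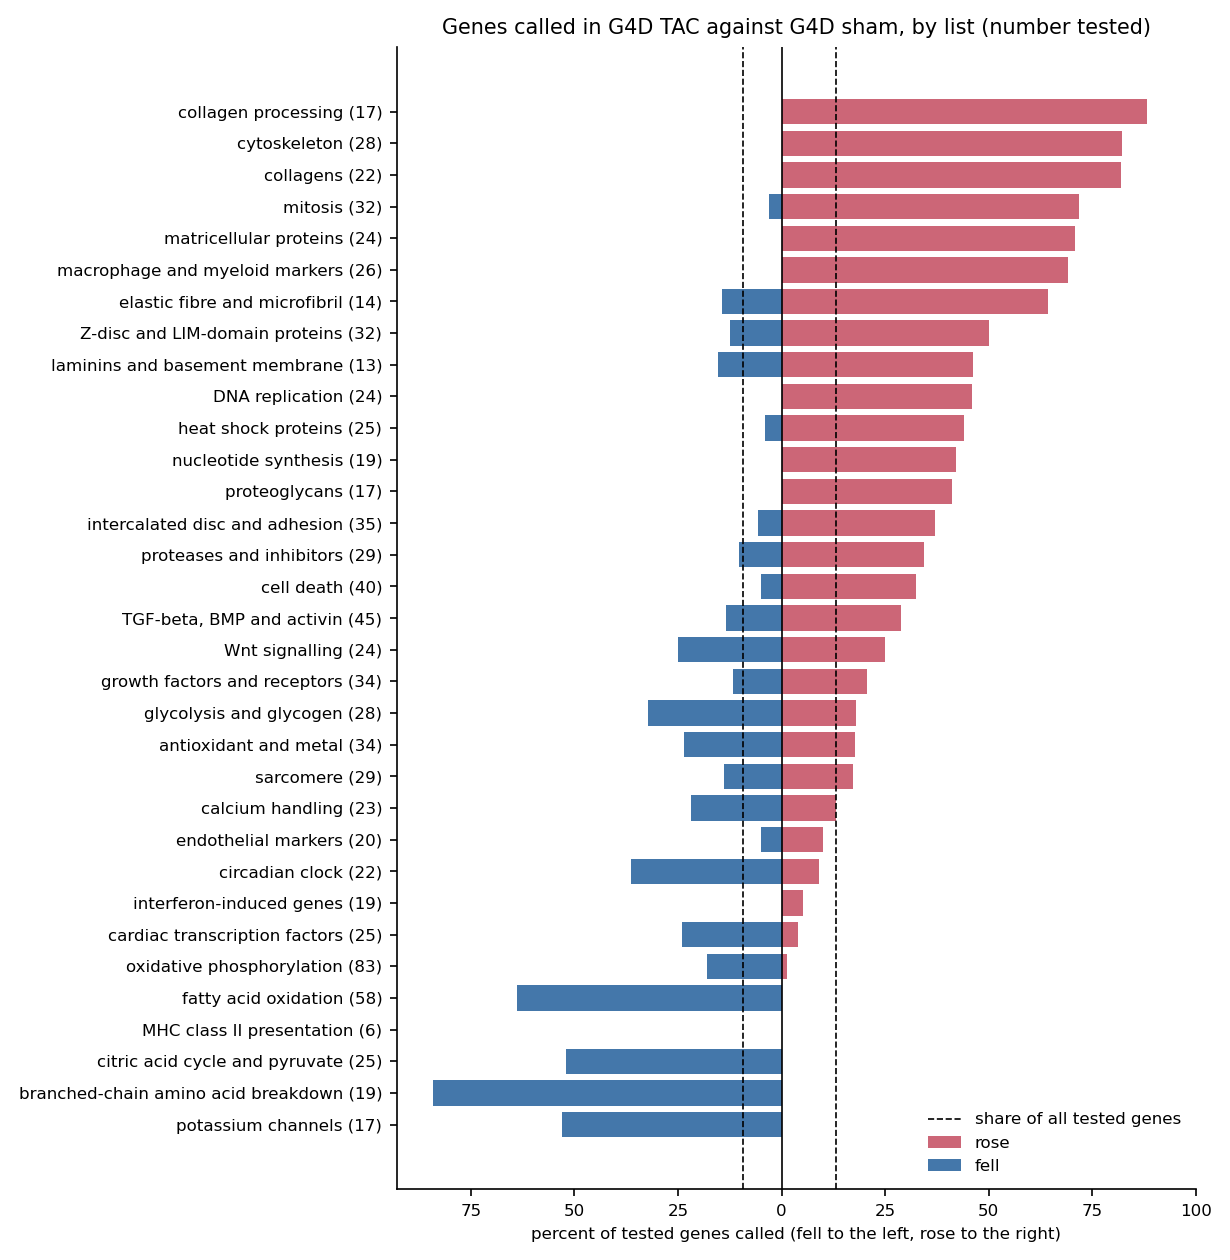
Percent of the tested genes of each list that rose (right, red) or fell (left, blue) in G4D TAC against G4D sham, with the number of tested genes in brackets. Dashed lines mark the shares of all tested genes, 13.2% risen and 9.32% fallen; collagens, collagen processing and cytoskeleton reach furthest to the right, and branched-chain amino acid breakdown and fatty acid oxidation furthest to the left.

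The natriuretic peptides are hormones that stretched heart muscle secretes and that lower blood pressure and volume. Both ligand genes rose. Nppb, the B-type peptide, stood at 11, 9.62, 10.39, 11.28 and 10.97 in sham and at 12.16 to 12.52 (median 12.27) in TAC, a rise of 1.66 ± 0.21 (adjusted p = 1.12e-05). Every TAC array lay above every sham array, and the TAC arrays lay closer together than the sham arrays. Nppa, the atrial peptide, stood at 10.24, 9.88, 10.23, 10.52 and 12.68 in sham, where the last value, of array 5, reached the TAC range, and at 11.64 to 12.79 (median 12.52) in TAC. Its rise was 1.69 ± 0.34 (adjusted p = 0.00122) with that array and 2.19 without it. Of the 9 genes of the system 2 rose and 3 (0 and 0) fell. Corin, the convertase of the atrial peptide, fell by 0.50, Mme, neprilysin, which degrades the peptides, by 0.48 and the convertase gene Pcsk6 by 0.37. In the values as deposited these differences were -0.06, -0.20 and 0.01. The call of Corin ended without sham array 2 or 5 or TAC array 3 or 5 (differences of -0.46 to -0.36, adjusted p up to 0.089), and that of Pcsk6 without sham array 2 or 4 or TAC array 1 or 3 (differences of -0.34 to -0.29, adjusted p up to 0.0782). The receptor genes Npr1, Npr2 and Npr3 were not called, at -0.08, 0.01 and -0.04 (0.20 for Npr3 without sham array 5), and neither was Furin (0.11).

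The region upstream of Nppb is shown because the element for GATA factors near its start is a textbook site of GATA4 action. The sequence runs 5′ to 3′ on the gene's own strand and ends at the base before the RefSeq start (GRCm38.p6, chr4:147985650-147985899, plus strand). Capitals mark AGATAA, the letters searched for GATA, and GGAATG, those for the MCAT element of TEAD factors, on either strand.
Nppb: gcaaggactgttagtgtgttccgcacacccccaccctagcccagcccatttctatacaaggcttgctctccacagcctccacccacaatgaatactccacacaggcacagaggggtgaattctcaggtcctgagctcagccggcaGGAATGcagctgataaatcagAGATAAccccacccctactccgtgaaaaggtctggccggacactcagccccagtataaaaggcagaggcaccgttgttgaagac
The window held 1 match of each of these letter strings. Other forms of the GATA element were not searched. The window also holds TGATAA, in lower case, a short way upstream of AGATAA, and the count leaves it out. Of all 32851 windows of this length in the RefSeq promoter table, 9.99% held AGATAA and 12.6% held GGAATG on either strand. AGATAA stood in 6.56% of the windows of tested genes, in 4.91% of those of genes that rose and in 6.7% of those of genes that fell. Of 12 windows of natriuretic peptide system genes, 8.33% held it. None of the motifs printed here or below contains another.

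The sarcomere list holds adult and fetal isoforms of the contractile proteins. Myh7, which encodes beta-myosin heavy chain, stood at 10.31, 8.73, 11.50, 11.35 and 11.23 in sham and 11.46 to 12.36 (median 12.16) in TAC (1.44 ± 0.36, adjusted p = 0.00637), and Acta1, skeletal actin, rose by 0.89 ± 0.25. Sham array 2 was the lowest for both genes, and without it the rise of Acta1 was 0.52. Tpm4, a non-muscle tropomyosin, rose by 0.94. Of 29 sarcomere genes in all, 5 rose and 4 (0 and 2) fell, with a median of -0.01. The kinase genes Mylk4 (-0.99) and Mylk3 (-0.76), which phosphorylate myosin light chains, had the largest falls. Of the heart muscle markers 1 of 15 rose and 3 (0 and 0) fell, with a median of -0.03. No rise among them was called on the other scales. Their mean ran from -0.12 to 0.02 in TAC arrays relative to the sham mean, where the sham arrays ran from -0.04 to 0.04.

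Z-disc and LIM-domain genes, whose products anchor the thin filaments and sense strain, rose in 16 and fell in 4 (0 and 0) of 32 members (median 0.26). Synpo2l, an actin-bundling Z-disc protein of the heart, had 1 of the smallest adjusted p of all genes. It stood at 9.38, 9.35, 9.43, 9.58 and 9.81 in sham and 10.87 to 11.71 (median 11.50) in TAC, a rise of 1.88 ± 0.14 (adjusted p = 6.36e-08). No TAC array came within 1 log2 unit of any sham array. A second probe set of Synpo2l, below the filter at a mean level of 4.27, gave -1.28. Fhl1, a LIM protein that binds titin, rose by 1.42 ± 0.14 (0.72 over the mean of its probe sets, of which the other gave 0.01), Ankrd23 by 1.25 ± 0.12 and Ankrd1, a strain-responsive partner of titin, by 0.99 ± 0.14. Des, the intermediate filament protein that ties Z-discs together, rose by 0.74 ± 0.10, with 10.92, 10.92, 10.98, 11.10 and 10.84 in sham and 11.34 to 11.87 (median 11.71) in TAC. It also stands in the list of smooth muscle and pericyte markers, where 2 of 12 rose and 1 (0 and 0) fell. Tcap, telethonin, which caps titin, fell by 0.62, and Cmya5 and Nebl fell by 0.57 and 0.48. Rcan1, a feedback inhibitor of the calcium-activated phosphatase calcineurin, stood at 8.65, 8.24, 8.61, 8.65 and 8.36 in sham and 10.03 to 11.22 (median 10.65) in TAC. Its rise of 2.08 ± 0.21 (adjusted p = 6.91e-07) was the largest of the 19 genes of calcineurin and CaM kinase signalling, of which 3 rose and 2 (0 and 0) fell.

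**Figure D2:**
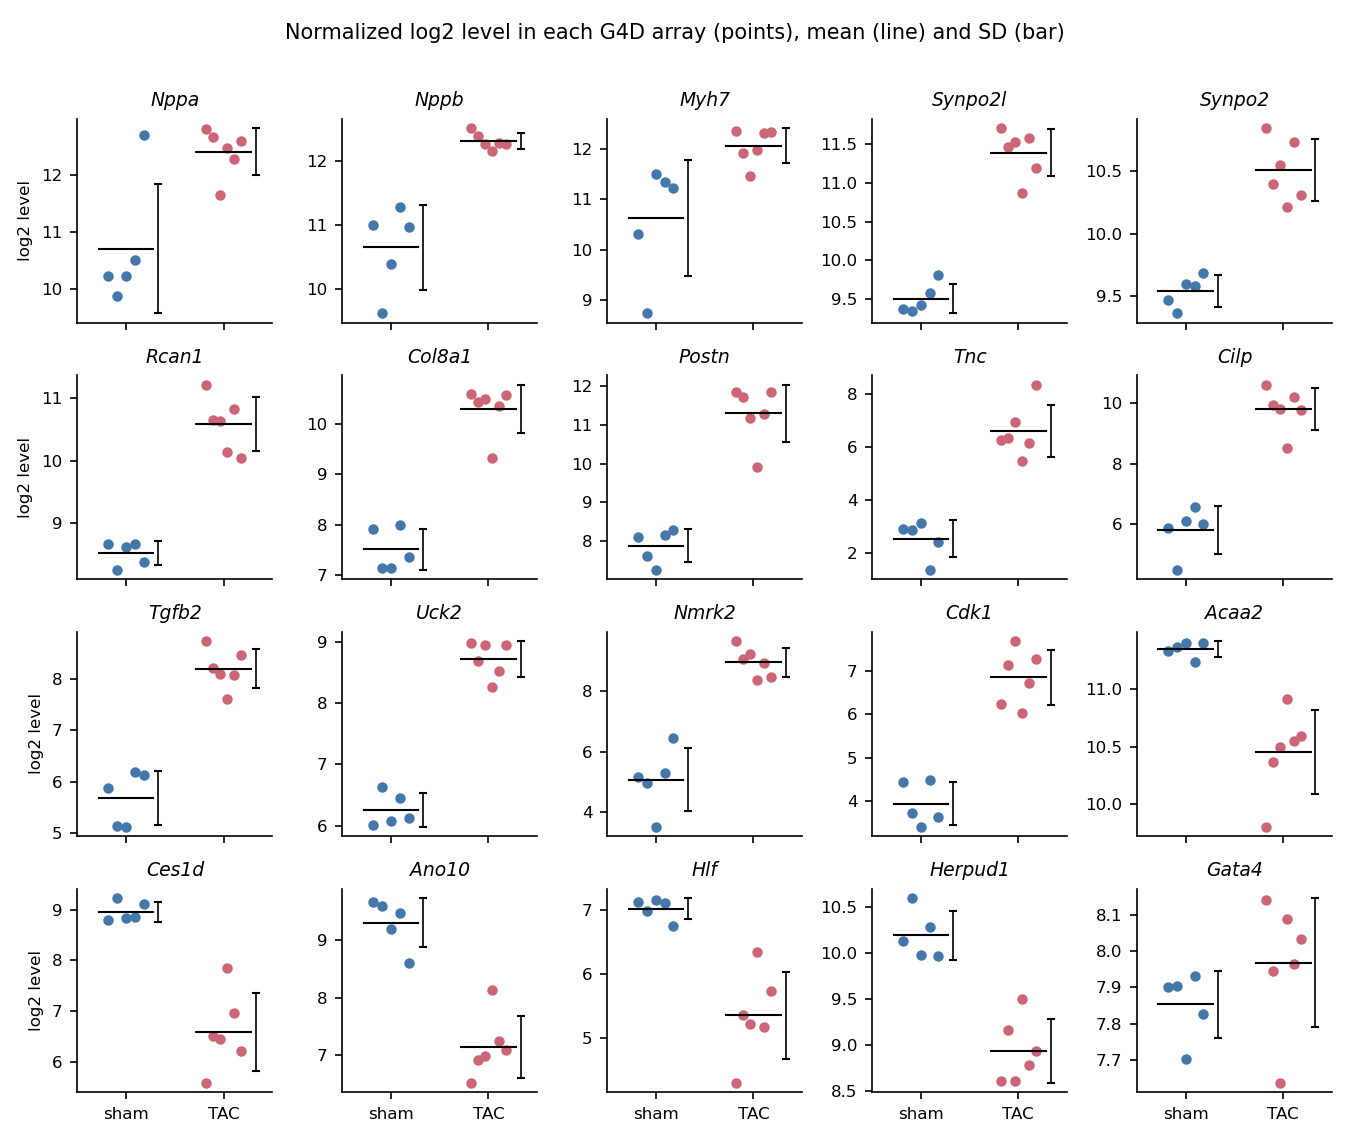
Normalized log2 level of 20 genes in each G4D array, sham on the left and TAC on the right of each panel, with the group mean (line) and SD (bar); the vertical scale differs between panels. Synpo2l, Col8a1 and Uck2 leave a wide gap between the groups, Nppa has 1 sham array at the TAC level, and the Gata4 groups overlap.

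Genes of the cytoskeleton rose widely: 23 of 28 rose and none fell, with a median of 0.66. Both parts of the list moved, 7 of 11 tubulins and 16 of 17 genes of actin and intermediate filaments. Tubb2a, a beta-tubulin, stood at 7.07, 7.17, 7.19, 7.95 and 7.63 in sham and 8.41 to 9.50 (median 9.02) in TAC, a rise of 1.62 ± 0.19 (adjusted p = 4.54e-06). All TAC arrays lay above all sham arrays. Tubb6 rose by 2.04 ± 0.32 (1.01 over the mean of its probe sets, of which the other, at a mean level of 5.61, gave -0.01) and Tubb2b by 1.98 ± 0.34, the latter from sham levels of 3.35 to 4.82, around the filter at 4.35, so that its size is imprecise. Capg, which caps actin filaments, rose by 1.58 ± 0.15. The integrin list, named after the receptors that tie this skeleton to the matrix, held 10 rises and 1 fall among 20 genes. Its largest rise was of Itgbl1 (1.60 ± 0.24), an integrin-like gene that does not encode such a receptor. Itga9 (1.17 ± 0.13) and Itga1 (1.10 ± 0.17) followed. Other probe sets of Itga9 gave 1.39 and -0.01, and that of Itga1 gave 0.56. Among 15 genes of cell junctions 3 rose and 1 fell, a called share of 26.7% against 22.5% of all tested genes. The fall was of Dsg2, the desmoglein of the intercalated disc, by 0.88 ± 0.12 (adjusted p = 3.56e-05). Integrins and junctions together had 2 (0 and 1) falls.

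Potassium channel genes set the repolarization of the heartbeat. Of 17 potassium channel genes none rose and 9 (2 and 5) fell, with a median of -0.41. In the values as deposited the list's median relative to that of all genes was -0.35. Centring shifts all genes of an array alike, so it cannot change this relative value. Kcnv2, a modifier subunit of voltage-gated channels, fell by 1.66 ± 0.22 (adjusted p = 1.71e-05), and Kcnd2, a subunit of the transient outward current, by 0.94 ± 0.18. Kcnj3 and Kcnj5 encode the 2 subunits of the acetylcholine-gated channel and are richest in atria. Kcnj5 stood at 6.27, 7.20, 6.50, 6.59 and 7.67 in sham, highest in array 5, and 5.43 to 6.25 (median 5.73) in TAC. It fell by 1.04 ± 0.22 (adjusted p = 0.00138), and without sham array 5 the difference was -0.84 (adjusted p = 0.00405). For Kcnj3 the corresponding differences were -1.58 and -1.27. Of 23 calcium handling genes 3 rose and 5 (0 and 0) fell, where 13.2% of all tested genes rose and 9.32% fell. Cacnb2 and Cacna1c, the beta subunit and the pore of the L-type calcium channel, fell by 0.72 ± 0.13 and 0.60 ± 0.09. Slc8a1, the sodium-calcium exchanger, rose by 0.63 ± 0.19, a call that ended without sham array 1 or TAC array 1 (differences of 0.54 to 0.60, adjusted p up to 0.058). Casq1, the skeletal calsequestrin, rose by 1.10 ± 0.30.

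Collagen genes rose together. Of 22 tested, 18 rose and none fell, where 13.2% of all tested genes rose. In 17 of them the groups did not overlap, where 6.73% of all tested genes lay higher without overlap. The median was 1.35, where the median of all tested genes was -0.02. All 6 fibrillar collagen genes, which form the load-bearing fibres of scar tissue, rose, with a median of 1.66. Col1a1, the main chain of type I collagen, stood at 8.31, 8.29, 8.04, 8.84 and 9.21 in sham and 9.87 to 11.34 (median 10.66) in TAC, a rise of 2.07 ± 0.27 (adjusted p = 1.63e-05). Basement membrane collagens rose in 6 of 8 (median 0.97), and fibril-associated, beaded and network collagens in 6 of 8 (median 1.32). Among the latter, Col8a1, a short-chain collagen of vessel walls and injured tissue, had the largest rise of the family. It stood at 7.91, 7.15, 7.15, 7.99 and 7.37 in sham and 9.32 to 10.60 (median 10.46) in TAC (2.78 ± 0.21, adjusted p = 6.36e-08). TAC array 4 was the lowest TAC array for Col1a1, Col5a2, Col5a3 and Col8a1, and still lay above every sham array. Col5a3 rose by 1.70 ± 0.24 and Col5a2 by 1.96 ± 0.21. In samples of this kind, a change in the number of cells of a type and a change in RNA per cell cannot be told apart.

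Enzymes that process and cross-link collagen rose in 15 of 17 with none falling and a median of 0.53. Lox, lysyl oxidase, which starts the cross-links, stood at 4.23, 5.24, 4.90, 5.24 and 6.40 in sham and 6.59 to 8.94 (median 8.13) in TAC and rose by 2.80 ± 0.43 (adjusted p = 8.36e-05). Other probe sets of Lox gave smaller rises of 1.26 and, below the filter, 1.18. Its relative Loxl1 rose by 1.33 ± 0.13, Pcolce, an enhancer of the C-proteinase of procollagen, by 1.36 ± 0.13 and P3h3, a prolyl hydroxylase, by 0.88 ± 0.19. Matricellular genes, whose products sit in the matrix and signal to cells, rose in 17 of 24 (median 0.84). Cilp of this list stood at 5.88, 4.49, 6.10, 6.56 and 6.02 in sham and 8.53 to 10.62 (median 9.87) in TAC, a rise of 4.01 ± 0.32 (adjusted p = 1.21e-07). Cilp is a secreted cartilage and heart protein, and no TAC array came within 1 log2 unit of a sham array. Tnc and Postn, tenascin C and periostin of wounds and scars, rose by 4.06 ± 0.40 and 3.42 ± 0.29, Tnc from sham levels of 1.36 to 3.13. Elastic fibre and microfibril genes rose in 9 of 14, with Mfap5 (2.02 ± 0.17) and Emilin1 (1.57 ± 0.12) among the smallest adjusted p of all genes, and fell in 2 (0 and 1), Fbln1 by 0.75 (a difference of -0.28, not called, over all its probe sets) and Emilin2 by 0.66. Proteoglycan genes rose in 7 of 17, led by Vcan, versican, by 2.12 ± 0.20 (1.38 over the mean of its probe sets) and Aspn, asporin, by 1.57 ± 0.26. Laminin and basement membrane genes were mixed, with 6 of 13 risen and 2 (1 and 1) fallen: Nid2 rose by 0.95 and Lamb1 by 0.90, and Lamb3 fell by 1.19. Among proteases and their inhibitors 10 of 29 rose and 3 (0 and 0) fell. Timp1 and Timp3, inhibitors of the same metalloproteinases, moved in opposite directions, by 3.25 and -0.57, but the fall of Timp3 was not called in the values as deposited (-0.13).

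Several fibroblast markers are matrix genes themselves, so their rises are in part the same results as above. Fibroblast markers rose in 12 and fell in 2 (0 and 1) of 20, with a median of 0.78. They share 3 collagen genes with the collagen list, and Mfap5 and Fbln1 with the elastic fibre list. Their mean ran from -0.19 to 0.37 in the sham arrays and from 0.56 to 0.90 in the TAC arrays, relative to the sham mean. Pdgfra and Tcf21, which mark resting fibroblasts, were not called (0.30 ± 0.13 and 0.23 ± 0.12) and were named after their values were seen. Without sham array 5 both were called, Pdgfra at 0.41 (adjusted p = 0.0247) and Tcf21 at 0.33 (adjusted p = 0.0437), and 14 markers rose. Pdgfra was also called in the values as deposited, at 0.72 (adjusted p = 0.0283). Meox1, a homeobox factor of activated fibroblasts, rose by 1.99 ± 0.17 (adjusted p = 1.67e-07) and the secreted serpin Serpinf1 by 1.55 ± 0.13. Epicardial and mesothelial markers rose in 3 of 5, with Aldh1a2, which makes retinoic acid, at 1.75, and fell in 1 (1 and 1), Upk3b at -1.29. Endothelial markers rose in 2 and fell in 1 (0 and 0) of 20 (median 0.08). The part of these cell types in the matrix results was not tested.

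The TGF-beta family divides into ligands that switch on matrix genes and BMP-type ligands, with receptors and secreted inhibitors around them. All 3 TGF-beta ligands rose. Tgfb2 stood at 5.87, 5.14, 5.13, 6.19 and 6.12 in sham and 7.61 to 8.73 (median 8.14) in TAC, a rise of 2.51 ± 0.22 (adjusted p = 1.67e-07). The gap between the groups exceeded 1 log2 unit. Tgfb3 rose by 1.10 ± 0.15 and Tgfb1 by 0.44 ± 0.12, a call that ended at 0.17 (adjusted p = 0.141) when its probe sets were averaged. Of the other 9 tested ligands none rose and 4 fell: Nodal by 0.53, Inha by 0.52, Gdf11 by 0.44 and Bmp6 by 0.38, all of them uncalled in the values as deposited. The call of Inha ended without sham array 1, 3 or 4 or TAC array 1, 2, 4, 5 or 6 (differences of -0.54 to -0.40, adjusted p up to 0.129) and that of Bmp6 without sham array 3, 4 or 5 or TAC array 2, 3, 4, 5 or 6 (differences of -0.39 to -0.31, adjusted p up to 0.113). A second probe set of Nodal gave 0.51, and with both averaged the difference was -0.01. Bmp10, a ligand of atrial muscle, stood at -0.98, or -0.31 without sham array 5, neither of them called, but was called without sham array 4 (-1.27, adjusted p = 0.0381). Inhibitors rose in 6 of 15, among them Fstl3, an activin trap, by 2.19 ± 0.36 from sham levels of 2.09 to 4.68, Fstl1 by 1.72 ± 0.17 and Pmepa1, a target and brake of the pathway, by 1.43 ± 0.19 (0.88 over the mean of its probe sets). Receptors and transducers rose in 4 of 18, and their called share was 27.8%, against 22.5% of all tested genes. Tgfbr3, a co-receptor and the sole one of these to fall, fell by 0.60 ± 0.11. The family as a whole had 6 (0 and 1) falls.

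Among other signalling genes, Wnt pathway members rose in 6 of 24 and fell in 6 (0 and 2). The secreted Wnt binders Frzb and Sfrp2 rose by 2.05 ± 0.32 and 1.25 ± 0.35. Growth factors and receptors rose in 7 of 34 and fell in 4 (0 and 0), a called share of 32.4% against 22.5% of all tested genes. Among them Hbegf, a ligand of the EGF receptor, rose by 1.17 ± 0.12 and Igf1 by 1.15 ± 0.19. In the interleukin-6 family 2 of 13 rose and 3 (0 and 2) fell. Socs3, the feedback inhibitor, rose by 1.38 ± 0.23 (0.91 over the mean of its probe sets), whereas Ctf1, the ligand cardiotrophin, and Lifr, its receptor chain, fell by 0.76 ± 0.14 and 0.75 ± 0.11. Over the mean of its probe sets Lifr stood at -0.43. Angpt1, which stabilises vessels, fell by 1.33 ± 0.21 (adjusted p = 0.00014). Efnb3, an ephrin, fell by 1.55 ± 0.19, 1 of the largest falls of all genes. Adcy7, an adenylate cyclase of blood and connective tissue cells, rose by 1.54 ± 0.16, and Adcy6, a form of heart muscle, fell by 0.70 ± 0.15.

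Of 32 genes of mitosis 23 rose and 1 (0 and 1) fell, Cdc25c by 0.48, and the median was 0.96. These 32 are the members that passed the filter, of 42 with a probe set. The filter takes the mean over sham and TAC arrays, so genes low in sham could pass through their TAC values. The share and the median can lean towards rises for that reason. Cdk1, the mitotic kinase, stood at 4.45, 3.74, 3.42, 4.50 and 3.65 in sham and 6.04 to 7.68 (median 6.93) in TAC, a rise of 2.90 ± 0.28 (adjusted p = 6.63e-07). Top2a, the topoisomerase that untangles chromosomes, stood at 4.72, 3.09, 4.0, 4.70 and 3.82 in sham and 5.41 to 7.63 (median 6.93) in TAC (2.67 ± 0.36). The groups did not overlap for either gene, though most sham values lie near or below 4.35, where sizes are imprecise. Genes of DNA replication rose in 11 of 24 with none falling, led by Cdt1 (1.68 ± 0.25) and Mcm6 (1.59 ± 0.21). Without sham array 5 the list had 11 rises and 2 falls. Other probe sets of Cdt1 gave 0.71 and, below the filter, -0.74. Of G1 cyclins and inhibitors of their kinases 5 of 19 rose and 2 (1 and 1) fell: Ccnd1, cyclin D1, rose by 1.12 ± 0.13, and Cdkn1c, the inhibitor p57, fell by 1.00 ± 0.20. The arrays do not show which cells were dividing.

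Upstream regions of 3 of these genes are shown because mitotic genes are known to share CCAAT boxes, bound by NF-Y, and the CHR element, bound by the DREAM and MuvB complexes. Capitals mark CCAAT and TTTGAA on either strand, in windows of 250 bases that end before the RefSeq start (GRCm38.p6). The Cdk1 window is chr10:69352913-69353162, minus strand, that of Top2a chr11:99024190-99024439, minus strand and that of Ube2c, whose product adds ubiquitin to mitotic cyclins, chr2:164769679-164769928, plus strand.
Cdk1: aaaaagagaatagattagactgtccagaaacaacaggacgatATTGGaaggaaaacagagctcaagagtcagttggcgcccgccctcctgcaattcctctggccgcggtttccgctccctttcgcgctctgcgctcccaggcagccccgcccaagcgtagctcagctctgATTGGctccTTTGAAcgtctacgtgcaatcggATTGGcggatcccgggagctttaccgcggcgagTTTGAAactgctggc
Top2a: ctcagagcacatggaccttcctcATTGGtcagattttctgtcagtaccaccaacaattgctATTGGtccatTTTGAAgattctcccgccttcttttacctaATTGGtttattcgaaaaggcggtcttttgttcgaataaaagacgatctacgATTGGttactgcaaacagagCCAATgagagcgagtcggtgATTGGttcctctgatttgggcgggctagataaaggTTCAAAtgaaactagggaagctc
Ube2c: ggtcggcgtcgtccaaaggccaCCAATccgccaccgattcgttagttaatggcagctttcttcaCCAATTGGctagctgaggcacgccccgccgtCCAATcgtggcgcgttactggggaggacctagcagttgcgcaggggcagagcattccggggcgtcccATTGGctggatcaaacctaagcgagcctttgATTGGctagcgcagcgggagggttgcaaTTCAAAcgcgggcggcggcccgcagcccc
Cdk1 held 3 CCAAT and 2 TTTGAA, Top2a 6 and 2, and Ube2c 6 and 1, where adjoining copies on both strands count separately. RefSeq windows were matched for 26 tested genes of the mitosis list. Of their 27 windows 74.1% held CCAAT and 37.0% held TTTGAA on either strand, where 33.8% and 16% of all windows did. In the windows of all genes that rose the shares were 34.0% and 10.8%.

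Nucleotide synthesis genes rose in 8 of 19 with none falling. Uck2, a kinase that salvages uridine and cytidine, stood at 6.01, 6.63, 6.08, 6.45 and 6.12 in sham and 8.26 to 8.97 (median 8.81) in TAC, a rise of 2.46 ± 0.21 (adjusted p = 1.67e-07). Rrm2, a subunit of ribonucleotide reductase, rose by 1.77 ± 0.28. Ribosome biogenesis genes rose in 7 of 24 with none falling, among them Rrp12 by 1.08 ± 0.17. Their called share was 29.2%, where 22.5% of all tested genes were called and 13.2% rose.

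Of 26 macrophage and myeloid markers 18 rose, none fell, and the median was 0.58. Cd68, a lysosomal protein of macrophages, stood at 5.44, 5.82, 4.50, 5.58 and 4.70 in sham and 6.18 to 7.04 (median 6.34) in TAC, a rise of 1.23 ± 0.21 (adjusted p = 0.000268), and Fcgr3, an Fc receptor, rose by 1.20 ± 0.21. Mean levels of the list ran from -0.17 to 0.23 in sham and from 0.29 to 0.86 in TAC. Cx3cr1, the fractalkine receptor of monocyte-derived and resident macrophages, rose by 2.01 ± 0.35 from sham levels of 2.22 to 4.59. A second probe set of Cx3cr1, below the filter at a mean level of 3.60, gave -0.01. Retnla, a resistin-like protein of fat and macrophages, fell by 1.96 ± 0.39 to levels that were below 4.35 in 5 of 6 TAC arrays. None of the 6 tested genes of MHC class II presentation was called: H2-Aa stood at -0.47 ± 0.23 and Cd74 at -0.33 ± 0.21. Of 19 interferon-induced genes 1 rose, Ifit2 by 0.75 ± 0.24, and this call ended without sham array 2, 3 or 5 or TAC array 1, 5 or 6 (differences of 0.57 to 0.73, adjusted p up to 0.091). Of 14 lymphocyte markers 5 passed the filter and 1 was called on this scale alone, Cd8a, which fell by 0.47 and was not called over the mean of its probe sets (-0.27).

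Genes of fatty acid oxidation, the main fuel pathway of the adult heart, fell in 37 (0 and 6) of 58, and none rose. Their median was -0.44, while the list's median relative to that of all genes was -0.38 in the values as deposited, which centring cannot change. Each step of the pathway held falls: 4 of 5 genes of the carnitine shuttle, 18 of 22 of beta-oxidation, 13 of 24 of regulators and PPAR targets, and 2 of 7 of uptake and activation. Acaa2, the thiolase of the last step, stood at 11.33, 11.36, 11.40, 11.23 and 11.40 in sham and 9.81 to 10.91 (median 10.52) in TAC, and fell by 0.89 ± 0.13 (adjusted p = 3.8e-05). The groups did not overlap, and TAC array 4 lay nearest to sham. Dgat2, which stores fatty acids as triglyceride, fell by 0.96 ± 0.16, and Slc27a1, a fatty acid transporter, by 0.87 ± 0.16.

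Breakdown of the branched-chain amino acids had the largest share of falls of any list shown, 16 (0 and 3) of 19, with a median of -0.53. In the values as deposited the median relative to that of all genes was -0.40, which centring cannot change. Dbt and Bckdha, subunits of the dehydrogenase complex that commits these amino acids to oxidation, fell by 0.89 ± 0.12 and 0.87 ± 0.16. Dbt stood at 8.24, 8.42, 8.14, 8.33 and 8.30 in sham and 6.92 to 7.68 (median 7.45) in TAC. Ppm1k, the phosphatase that switches this complex on, fell by 0.89 ± 0.13, and Mccc2 of the leucine branch by 0.81 ± 0.09. Citric acid cycle and pyruvate genes fell in 13 of 25 (median -0.24), the largest being Suclg2 by 0.51. Of 83 oxidative phosphorylation genes 15 fell and 1 rose, with a median of -0.12. By complex, 7 of 33 genes of complex I fell, 3 of 4 of complex II, 1 of 10 of complex III with cytochrome c, 1 of 18 of complex IV and 3 of 18 of the ATP synthase. Neither list had a fall in the values as deposited or after centring.

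Glycolysis and glycogen genes went both ways, 5 up and 9 (0 and 0) down of 28. Pfkp, the platelet form of phosphofructokinase, stood at 8.03, 7.81, 8.39, 8.41 and 8.25 in sham and 9.13 to 9.90 (median 9.36) in TAC and rose by 1.26 ± 0.13 (adjusted p = 1.55e-06). Pfkm, the muscle form of the same enzyme, fell by 0.43 ± 0.07, and Slc2a4, the insulin-sensitive glucose transporter, by 0.48 ± 0.10. Gyg, which primes glycogen, rose by 0.64 ± 0.10. In the synthesis of NAD, Nmrk2 and Nampt moved in opposite directions. Nmrk2, which starts from nicotinamide riboside, stood at 5.16, 4.95, 3.54, 5.28 and 6.44 in sham and 8.34 to 9.62 (median 8.97) in TAC and rose by 3.85 ± 0.36. Nampt, which starts from nicotinamide, fell by 0.89 ± 0.12 (adjusted p = 2.37e-05), with 10.55, 10.28, 10.07, 10.37 and 10.27 in sham and 8.95 to 9.73 (median 9.45) in TAC. Ckb, the brain form of creatine kinase, rose by 0.64 ± 0.09.

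The circadian clock is a feedback loop in which Clock and Arntl switch on their own repressors, the Per and Cry genes, together with output factors such as Dbp, Tef and Hlf. The hour of sampling is not in the labels, so time of day and operation cannot be told apart for these genes. Of 22 tested clock and output genes 8 (1 and 3) fell and 2 rose, with a median of -0.34. In the values as deposited the median relative to that of all genes was -0.34, which centring cannot change. Hlf stood at 7.11, 6.97, 7.15, 7.10 and 6.75 in sham and 4.29 to 6.33 (median 5.28) in TAC, and fell by 1.67 ± 0.28 (adjusted p = 0.000206). Tef stood at 9.29, 9.15, 9.14, 9.27 and 9.07 in sham and 7.84 to 9.05 (median 8.30) in TAC and fell by 0.88 ± 0.20. For both genes TAC array 4 was closest to the sham arrays and TAC array 1 farthest. Of the repressors, Per3 fell by 1.06 ± 0.35, Ciart by 0.99 ± 0.32, Cry2 by 0.84 ± 0.17 and Nr1d2 by 0.66 ± 0.13. The other output genes that fell were Usp2, by 0.66 ± 0.19, and Klf9, by 0.64 ± 0.09. The calls of Per3, Ciart and Usp2 were lost with single arrays: they ended, for Per3, without sham array 2, 3, 4 or 5 or TAC array 1, 2, 3 or 5 (differences of -1.08 to -0.92, adjusted p up to 0.0755), for Ciart, without sham array 1, 2 or 4 or TAC array 1, 2 or 5 (differences of -0.95 to -0.85, adjusted p up to 0.0868), and for Usp2, without sham array 1 (difference -0.57, adjusted p = 0.0526). Averaged over its probe sets Per3 stood at -0.61. Clock itself rose by 0.42 ± 0.13 (0.64 over the mean of its probe sets), a call that ended without sham array 3 (difference 0.33, adjusted p = 0.073), and Bhlhe40, a repressor, rose by 0.61 ± 0.17. Arntl (-0.06), Per1 (-0.68), Per2 (-0.31), Cry1 (-0.23), Nr1d1 (0.20) and Dbp (-0.76) were not called on their brightest probe sets. Over the mean of its probe sets Per2 was called at -0.86 (adjusted p = 0.0343), with other probe sets at -1.41 and -1.02, and Arntl at 0.65 (adjusted p = 0.0408), with a dimmer probe set at 1.37. Per1 was called without TAC array 4, at -0.82 (adjusted p = 0.0242), and with array weights, at -0.81 (adjusted p = 0.0361). The list mean of the TAC arrays ran from -0.68 to -0.09 relative to the sham mean, and overlapped the sham arrays, which ran from -0.23 to 0.16.

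**Figure D3:**
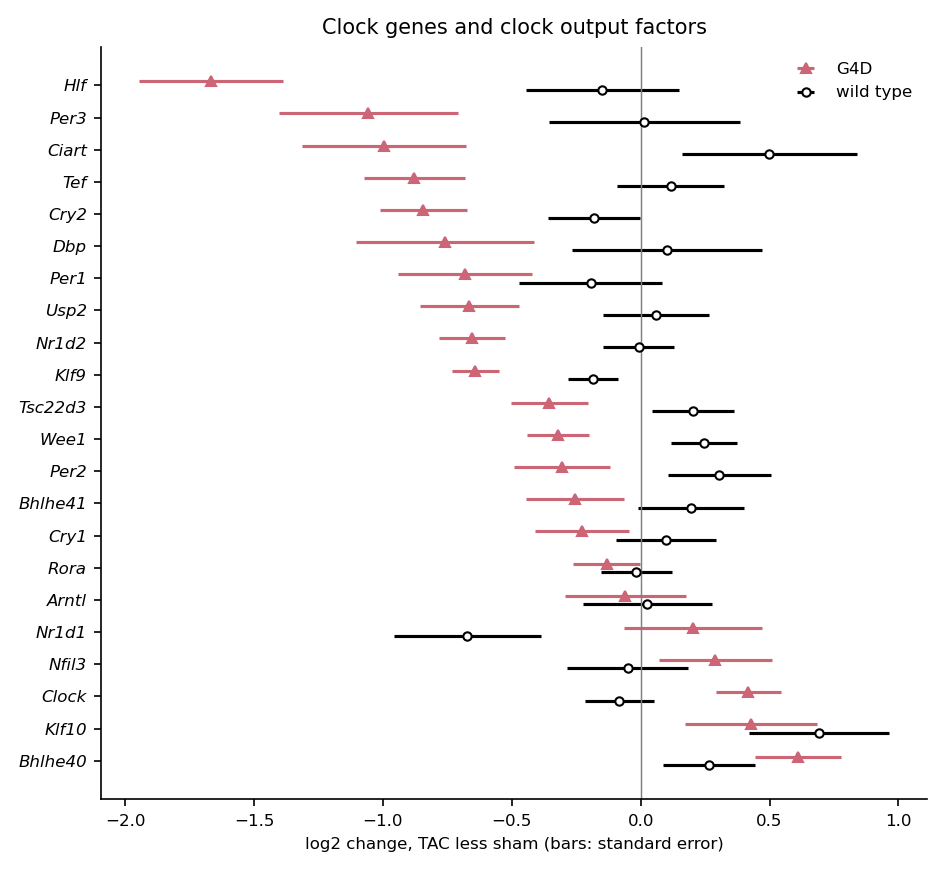
Log2 change, TAC less sham, of the 22 tested clock and clock output genes in G4D (triangles) and in wild type (open circles), with bars of 1 standard error. Hlf, Per3, Ciart and Tef lie farthest below 0 in G4D, and the wild-type points lie nearer to 0 for these genes or, for Ciart, above it.

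Windows upstream of Ciart and Tef are shown because clock genes carry E-boxes, the CACGTG element bound by Clock and Arntl. Capitals mark CACGTG, which reads the same on both strands. The coordinates in GRCm38.p6 are chr3:95882229-95882478, minus strand, for Ciart and chr15:81802423-81802672, plus strand, for the first start of Tef in the RefSeq table.
Ciart: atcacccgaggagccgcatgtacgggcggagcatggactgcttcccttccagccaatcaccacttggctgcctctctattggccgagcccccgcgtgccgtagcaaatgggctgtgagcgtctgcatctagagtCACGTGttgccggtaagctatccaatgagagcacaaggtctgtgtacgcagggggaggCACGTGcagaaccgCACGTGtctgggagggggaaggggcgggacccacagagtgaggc
Tef: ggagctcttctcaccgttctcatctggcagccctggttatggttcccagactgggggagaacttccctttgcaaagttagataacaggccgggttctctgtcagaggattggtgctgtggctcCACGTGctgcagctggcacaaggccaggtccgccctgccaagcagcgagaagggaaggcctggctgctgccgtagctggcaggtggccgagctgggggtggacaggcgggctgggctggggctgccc
Ciart held 3 copies and Tef 1. The element stood in 24.0% of 25 windows of 18 matched clock genes, where 6.02% of all windows held it. In windows of all genes that fell the share was 8.45%.

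Heat shock genes, which encode chaperones of damaged or new proteins, rose in 11 and fell in 1 (0 and 0) of 25 members (median 0.24). Without sham array 5, 8 rose and 0 fell. Hsp90aa1, the inducible form of HSP90, stood at 9.52, 9.89, 9.32, 9.84 and 9.97 in sham and 10.20 to 10.69 (median 10.56) in TAC, a rise of 0.81 ± 0.12 (adjusted p = 5.74e-05). Hspa1a and Hspa1b, near-identical copies of inducible HSP70 that probe sets may not separate, rose by 0.67 and 0.64. Among genes of the endoplasmic reticulum 8 of 25 rose and 2 (1 and 1) fell. Edem1 and Sec61b, of protein disposal and import, rose by 0.92 ± 0.19 and 0.79 ± 0.11. Herpud1, which helps to clear misfolded proteins, went the other way. It stood at 10.13, 10.60, 9.98, 10.28 and 9.97 in sham and 8.61 to 9.51 (median 8.87) in TAC, and fell by 1.25 ± 0.18 (adjusted p = 3.55e-05) with no overlap. Dnajb9, a chaperone of the same compartment, fell by 0.35 ± 0.07, but stood at 0.08 in the values as deposited. Cytosolic aminoacyl-tRNA synthetases, which load amino acids onto tRNA, rose in 7 of 19 and fell in 1 (0 and 0), by small amounts led by Hars at 0.47 ± 0.10.

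Genes of cell death rose in 13 of 40 and fell in 2 (0 and 1). The rises held 8 of 25 pro-apoptotic and 5 of 15 anti-apoptotic genes, with the same median of 0.09 on both sides. Tnfrsf12a, the receptor of the cytokine TWEAK, rose by 1.76 ± 0.18, and Bcl2, which protects mitochondria, by 1.23 ± 0.15 (0.81 over the mean of its probe sets). Bcl2 stood at 5.41, 5.09, 4.71, 5.68 and 5.45 in sham and 6.31 to 6.69 (median 6.47) in TAC. Bcl2l11, the pro-apoptotic factor BIM, fell by 0.77 ± 0.17. Of 15 targets of p53 4 rose and 1 (0 and 0) fell, led by Phlda3 at 1.0 ± 0.12 and Zmat3 at 0.96 ± 0.11.

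Glutathione S-transferases, which attach glutathione to reactive compounds, supplied the largest falls among 34 antioxidant and metal genes, of which 6 rose and 8 (2 and 4) fell. Gsta3 stood at 6.31, 6.35, 6.36, 5.81 and 5.59 in sham and 3.39 to 5.68 (median 3.89) in TAC, and fell by 2.01 ± 0.38 (adjusted p = 0.00072). TAC array 4 overlapped the sham range. Gstt1, Gstk1 and Gstm1 fell by 1.02 ± 0.17, 0.93 ± 0.15 and 0.80 ± 0.14. On the rising side stood Gpx7, a peroxidase of the endoplasmic reticulum, by 1.02 ± 0.13. Among genes of no list, Ces1d, a carboxylesterase, stood at 8.79, 9.23, 8.83, 8.85 and 9.11 in sham and 5.58 to 7.85 (median 6.47) in TAC, and Ano10, an anoctamin, at 9.66, 9.58, 9.19, 9.46 and 8.60 and 6.52 to 8.12 (median 7.04). Each fell by over 2 log2 units, and in both TAC array 4 was the highest TAC array.

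Of 25 cardiac transcription factors 1 rose and 6 (2 and 3) fell. Klf15, a repressor of hypertrophic genes that also drives metabolic ones, fell by 1.20 ± 0.19 (adjusted p = 0.000119), from 8.02, 8.29, 7.21, 8.02 and 7.78 in sham to 6.15 to 7.39 (median 6.63) in TAC. Tbx5 fell by 1.10 ± 0.19, and its difference was -0.88 without sham array 5, where it was highest. Hopx fell by 0.64 ± 0.11, Hand2 by 0.55 ± 0.12 and Prox1, a homeobox factor, by 0.56 ± 0.19, the last a call that ended without sham array 1, 3 or 4 or TAC array 3, 4 or 6 (differences of -0.57 to -0.45, adjusted p up to 0.0997). The rise was of Wwtr1, the Hippo pathway factor TAZ, by 0.37 ± 0.10. Nkx2-5 (-0.13), Mef2a (-0.22), Mef2c (0.28) and Srf (0.30) were not called. In the values as deposited 3 rose, with Mef2c at 0.70 (adjusted p = 0.0292) and Srf at 0.70 (adjusted p = 0.0386), and both were also called after centring. Mef2a was called with a trended and robust variance (-0.22, adjusted p = 0.0459) and without sham array 3 (-0.26, adjusted p = 0.0424). It stood at 0.21 in the values as deposited, and its other probe sets gave -0.40 to 0.16.

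The same operation in wild-type mice called 976 genes (7.35%), 689 of them higher (5.19%) and 287 lower (2.16%). Without wild-type sham array 1 the count was 559 and without wild-type TAC array 4 it was 598. The G4D and wild-type comparisons share no arrays. Both come from 1 fit and 1 normalization of the 21 arrays, so they share each gene's estimate of spread, and their calls are not independent. Across the 13279 genes, which are not independent replicates, their log2 changes had a Pearson correlation of 0.723. Of the 976 wild-type calls 960 had the same sign in G4D (98.4%), and 548 were larger there (56.1%). The genes called in both, 826 in number, made up 84.6% of the wild-type calls and 27.7% of the G4D calls, all with the same sign. The median size of the change of the wild-type calls, which were chosen by their wild-type values, was 0.55 in wild type and 0.60 in G4D. The median standard error was 0.13 in wild type and 0.12 in G4D.

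By list, mitosis rose in 23 G4D and 23 wild-type members, with medians of 0.96 and 1.24, and macrophage markers in 18 and 17, with medians of 0.58 and 0.67. Collagens rose in 18 and 15 (1.35 and 0.83) and collagen processing in 15 and 5 (0.53 and 0.31). Fatty acid oxidation fell in 37 and 11 (-0.44 and -0.23) and branched-chain amino acid breakdown in 16 and 8 (-0.53 and -0.37). Heat shock genes rose in 11 and 1 (0.24 and 0.04), and aminoacyl-tRNA synthetases in 7 and 0. Clock genes fell in 8 and 0 (-0.34 and 0.04). These counts carry no test of the difference between the genotypes. Over all genes G4D had 2985 calls and wild type 976, and in the values as deposited wild type had only 95 calls.

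The difference between the genotypes in the size of the TAC effect was called for 2 genes (0.0151%), both higher in G4D. Without G4D TAC array 4 the count was 29, without TAC array 2 it was 5, and leaving out any 1 of 11 other arrays left Synpo2 alone. At an unadjusted p under 0.05 there were 1110, of which 920 were larger in the direction of the G4D change. Synpo2, myopodin, an actin-bundling protein of the Z-disc and the nearest relative of Synpo2l, stood at 9.47, 9.37, 9.60, 9.58 and 9.69 in G4D sham and 10.21 to 10.84 (median 10.47) in G4D TAC. It rose by 0.96 ± 0.10 in G4D and stood at -0.27 ± 0.10 in wild type, a difference of 1.23 ± 0.14 (adjusted p = 0.000356). The call held without any 1 array and ended, at a difference of 0.72 (adjusted p = 0.0605), when the probe sets of the gene were averaged, with a change of 0.42 in G4D. They disagree: in G4D a second probe set gave 0.84, another, at a mean level of 6.26, gave -0.53, and the last, below the filter, gave -0.06. Uck2 rose by 2.46 ± 0.21 in G4D and stood at 0.61 ± 0.22 in wild type, a difference of 1.85 ± 0.31 (adjusted p = 0.0359). That call ended without any 1 of 14 of the 21 arrays, 4 G4D sham, 4 G4D TAC, 4 wild-type sham and 2 wild-type TAC, with an adjusted p of up to 0.0941, and with averaged probe sets. In G4D all 6 probe sets of Uck2 were higher after TAC, by 0.52 to 2.49.

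Other genes with a small unadjusted p for this difference were not called. Most of those given here were named for their change in G4D. That choice favours larger changes in G4D, so their lean that way is no result about the genotypes. Xirp1, an actin-binding protein of the intercalated disc that was named after its values were seen, stood at 0.71 ± 0.11 in G4D and -0.23 ± 0.12 in wild type (adjusted p of the difference = 0.0522). For Des the changes were 0.74 and 0.00 (adjusted p = 0.0746), for Rcan1 2.08 and 0.54 (adjusted p = 0.0746) and for Tgfb2 2.51 and 0.94 (adjusted p = 0.0809). Cilp stood at 4.01 and 1.74 (adjusted p = 0.0809), Nmrk2 at 3.85 and 1.43 (adjusted p = 0.0873) and Hbegf at 1.17 and 0.31 (adjusted p = 0.0809). Herpud1 fell in G4D, at -1.25, and stood at -0.16 in wild type (adjusted p = 0.148), and the same values of Hlf were -1.67 and -0.15 (adjusted p = 0.224). Ankrd1 leaned the other way, at 0.99 in G4D and 1.64 in wild type (adjusted p = 0.301).

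**Figure D4:**
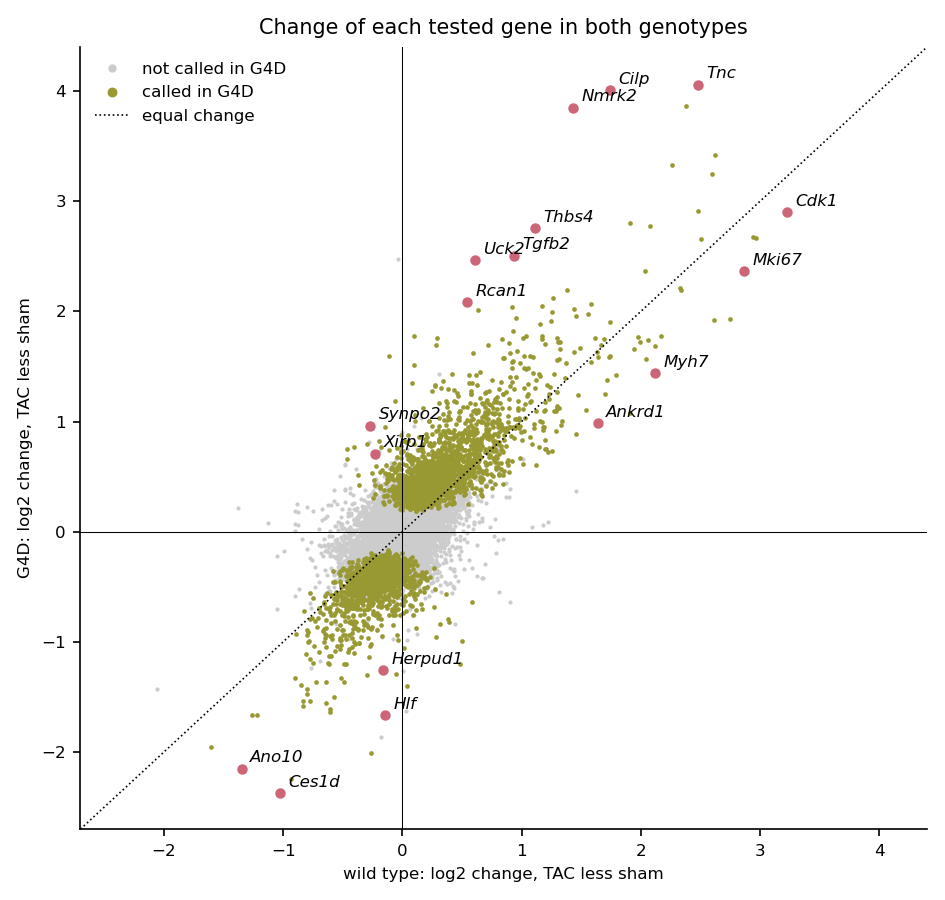
Log2 change of each of the 13279 tested genes, TAC less sham, in wild type (horizontal) and G4D (vertical), with genes called in G4D in olive and named genes in red; the dotted line marks equal change. Most named genes with large rises, among them Cilp, Nmrk2, Tgfb2 and Rcan1, lie above the line, Cdk1, Myh7 and Ankrd1 lie below it, and Synpo2 lies to the left of 0 in wild type. The named genes were picked, mostly for their change in G4D. That choice favours places above the line for rises, so these places are no result about the genotypes.

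The measured change was not equally large in all TAC arrays. TAC array 4 had the smallest change of the 6 on the means of collagens (0.69, others up to 1.45), mitosis (0.42, others up to 1.71), fatty acid oxidation (-0.15, others down to -0.56), potassium channels (-0.22, others down to -0.79) and clock genes (-0.09, others down to -0.68). Its collagen and mitosis means still lay above every sham array. On DNA replication the smallest change was that of TAC array 1 (0.09, against 0.33 in TAC array 4). On some other lists TAC array 4 had the largest change, as for ribosome biogenesis (0.33, others up to 0.27) and complement genes (0.37, others up to 0.27). Among the G4D TAC arrays it also had the lowest median in the deposited values (4.37, others 4.82 to 5.33). Its correlation with the rest of its group, 0.937 over all probe sets, was the lowest of these arrays too. The part of array quality in these differences was not tested. Atrial marker genes set sham array 5 apart, with a mean of 1.86 against -0.53 to -0.39 in the other sham arrays. Of 10 atrial markers 1 rose and 3 fell, with a median of -0.93, or -0.28 without that array, when 1 rose and 3 fell. Myl7, the atrial myosin light chain, named after its values were seen, stood at 4.11, 4.0, 5.42, 5.36 and 11.66 in the sham arrays.

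**Figure D5:**
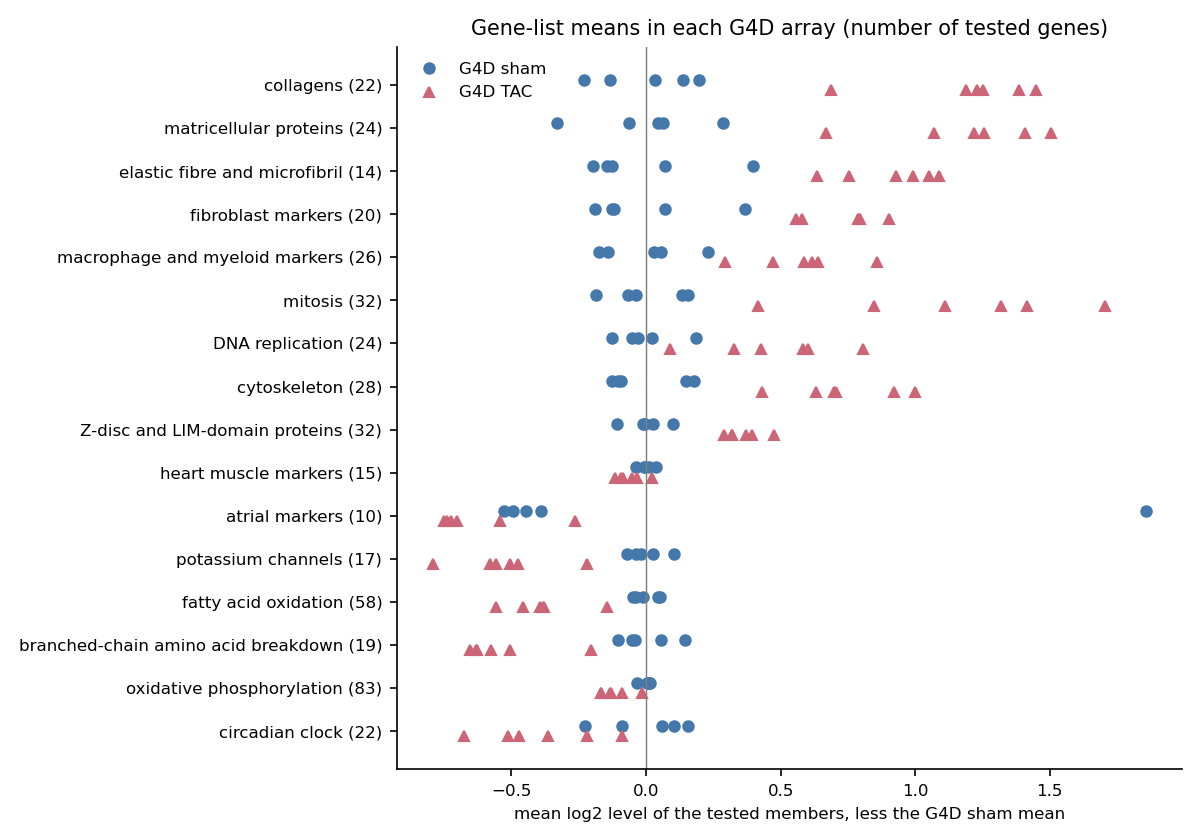
Mean log2 level of the tested members of 16 lists in each G4D array, less the mean of the 5 sham arrays, with sham arrays as circles and TAC arrays as triangles. Sham and TAC arrays do not overlap for collagens, mitosis or fatty acid oxidation, they overlap for heart muscle markers and clock genes, and 1 sham array lies far to the right for atrial markers.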

How the data were processed

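Whole-genome mouse expression arrays were hybridised with biotin-labelled total RNA of 5 G4D sham, 6 G4D TAC, 4 wild-type sham and 6 wild-type TAC samples. The deposited values are on a log2 scale, as their range shows, and were made with PLIER per the submitters' processing notes. Version, settings and between-array normalization of that step are not given in the sources used here. No background measure per probe set was used, so the number of arrays and the spread between them limit the precision.

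Of 45037 probe sets that are not controls, 34945 carry 1 gene symbol, 932 several and 9160 none. Values were quantile normalized between the 21 arrays. The brightest probe set of each symbol was kept if its mean reached the 40th percentile of all probe sets (4.35), which left 13279 of 18193 symbols. That mean covers sham and TAC arrays. A gene near the floor in sham, such as Cdk1, Ube2c, Tnc, Fstl3 or Cx3cr1, could therefore pass through its TAC values. Shares of risen genes in lists of low level can lean upwards for that reason. Group means were fitted with limma 3.58.1 (R 4.3.3, lmFit and eBayes, 17 residual degrees of freedom), contrasts were 2-sided, and p-values were adjusted by Benjamini-Hochberg over all 13279 genes. The fit was tested on simulated data. Array scores are means over the tested members of a list, less the sham mean.

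The comparison, its genes and the 67 gene lists were chosen with earlier results of these data known. The lists hold 1629 genes, of which 1516 have a probe set, 1370 passed the filter, 146 lay below it and 113 were not matched. The genes named are the 15 largest rises, the 15 largest falls and the 15 smallest adjusted p among called genes with no overlap between sham and TAC arrays, and in each list up to 4 called members with the largest change in each direction, or up to 2 with the smallest p as values where none was called. Genes of the interaction, Gata4, Gata6, and any member of the natriuretic peptide, cardiac transcription factor, clock and TGF-beta ligand lists could be named too. Upstream windows come from a RefSeq promoter table (GRCm38.p6), which matched 10656 tested genes by symbol. Alternatives were other scales, filters, probe set rules, variance models and array weights, the G4D arrays alone, a replicate block and each array left out in turn.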

Additional observations from a re-analysis of the deposited data

Results flagged for a closer look

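Arrays that stood far from the rest of their group were looked for over 382 sets of values, each the G4D sham or the G4D TAC arrays of a named gene or a list mean. The gap of 1 array to its nearest neighbour was large against the range in 31 of them (8.12%), where chance gives about 5%. Of these, 15 were TAC array 4 and 7 were sham array 5.

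G4D sham array 2 stood apart in its log2 level of Acta1 (10.4 against 12.14 to 12.35) and Itgbl1 (5.1 against 5.95 to 6.24). G4D sham array 5 stood apart in its log2 level of Bmp10 (8.2 against 4.37 to 5.21), Lamb3 (6.98 against 6.35 to 6.42), Myl7 (11.7 against 4.0 to 5.42), Nppa (12.7 against 9.88 to 10.52) and Tbx5 (6.83 against 5.54 to 5.90). The mean of atrial markers in G4D sham array 5 was 1.86, against -0.53 to -0.39 in the other arrays of its group. The mean of oxidative phosphorylation in G4D sham array 5 was -0.0336, against 0.00 to 0.02 in the other arrays of its group. G4D sham array 3 stood apart in its log2 level of Clock (6.51 against 6.88 to 7.03) and Nr1d2 (9.64 against 10.07 to 10.22). G4D sham array 4 stood apart in its log2 level of Ppm1k (8.97 against 9.33 to 9.46). G4D TAC array 4 stood apart in its log2 level of Adcy7 (7.24 against 7.94 to 8.28), Bckdha (9.3 against 8.24 to 8.60), Clock (6.96 against 7.31 to 7.40), Col8a1 (9.32 against 10.35 to 10.60), Gsta3 (5.68 against 3.39 to 4.20), Gstm1 (10.7 against 9.64 to 9.95), Meox1 (7.91 against 8.71 to 9.10), Nkx2-5 (8.9 against 8.31 to 8.53), Postn (9.9 against 11.19 to 11.87), Ppm1k (9.01 against 8.25 to 8.36), Vcan (7.17 against 7.87 to 8.28), Wwtr1 (9.16 against 9.52 to 9.71) and Zmat3 (6.26 against 6.50 to 6.62). The mean of collagens in G4D TAC array 4 was 0.687, against 1.19 to 1.45 in the other arrays of its group. The mean of branched-chain amino acid breakdown in G4D TAC array 4 was -0.205, against -0.65 to -0.51 in the other arrays of its group. G4D TAC array 6 stood apart in its log2 level of Cd68 (7.04 against 6.18 to 6.42). G4D TAC array 2 stood apart in its log2 level of Dnajb9 (8.84 against 8.71 to 8.76). G4D TAC array 1 stood apart in its log2 level of Per1 (4.89 against 6.29 to 6.90). G4D TAC array 3 stood apart in its log2 level of Srf (8.01 against 7.76 to 7.81). The TAC effect differed between the genotypes for Synpo2 (1.23 on the log2 scale, G4D less wild type) and Uck2 (1.85 on the log2 scale, G4D less wild type), by the test of that difference in limma with Benjamini-Hochberg adjustment.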

How the results depend on the processing

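The number of genes called for G4D TAC against sham was 2985, and ran from 2424 to 3356 when 1 array was left out. It was 2252 in the values as deposited, 2178 after centring, 2737 without a filter and 2185 with the 11 G4D arrays alone, and 1029 genes were also at least 1.5-fold apart. The wild-type count of 976 fell to 95 in the values as deposited and 388 after centring, and ran from 559 to 922 without 1 array. The cause of these differences was not tested. The interaction count of 2 was 6 in the values as deposited, 10 after centring, 1 without a filter, 20 with a filter at the 60th percentile, 0 over the mean of all probe sets (limma, with 1064 genes at an unadjusted p under 0.05), 6 with a trended and robust variance, 24 with array weights, and 1 to 29 without 1 array. Of the named genes called here 3 turned their sign, in the values as deposited: Gata6 stood at 0.0387, Dnajb9 at 0.0822 and Pcsk6 at 0.0133. Of 21 named genes that were not called, 11 turned under at least 1 alternative, 7 of them in the values as deposited. The Gapdh 3′ less 5′ difference of 0.078 was 0.149 (exact permutation p = 0.0303) in the values as deposited, and the actin difference ran from -0.22 to -0.15 without 1 array. Of 154 named genes called here, 143 kept the call without each G4D array. Same-numbered sham and TAC arrays had correlations of their deviations from -0.19 to 0.35 and share only a number. With the replicate number as a block over the 10 arrays that have one, 1118 genes were called, against 1582 with the same 10 arrays and no replicate block, a comparison chosen after seeing the data. Differences well below the median standard error of 0.12 cannot be told from 0 with these arrays.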
